A study of Mus musculus with 4 samples.

Results

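The genes described are 36 chaperones, co-chaperones and chaperonin subunits that work in the cytosol, nucleus or mitochondria rather than in the endoplasmic reticulum, chosen by name and matched to Ensembl gene IDs through GENCODE M21. Of the 36, 35 had a row among the 38282 genes of the tables, and 32 of these passed the filter on low values, a mean of at least 1 FPKM over all libraries, which left 11423 genes for testing. FPKM counts fragments per length of transcript and per depth of the library, so levels can be set side by side between genes of different length. Hspa1a, Hspa1b and Hspb1 lay under the filter, and Hspa14 had no row under its GENCODE M21 ID. A row that overlaps the Hspa14 locus, named Gm45902 in that release, stood at 106 to 122 FPKM and was not counted as a member.

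The cells were mouse (C57BL/6) naive CD4+ T cells from spleen, activated under the Th0 condition, the usual name for stimulation with no lineage-directing cytokines, and harvested on day 4. Cultures without dopamine are called Th0 and cultures with dopamine Th0+Dopa, with 2 libraries each that carry the numbers 2 and 3. The sources used here state neither how much dopamine was added nor when. They also do not say that the libraries are separate cultures or animals, so the p-values cover only the spread among these libraries, which may be technical. The series is about dopaminergic innervation and Th2 inflammation in the postnatal lung, and the comparison asks how the RNA of CD4+ T cells differs when dopamine is present during activation.

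Chaperones help newly made and damaged proteins to fold. Hsp70 proteins bind short hydrophobic stretches in cycles of ATP hydrolysis that J proteins start and nucleotide exchange factors end, Hsp90 takes over partly folded kinases and receptors with the help of co-chaperones, and chaperonins fold proteins inside a closed barrel. Many chaperone genes are driven by heat shock factor 1 (HSF1), which binds heat shock elements, inverted repeats of the bases GAA, when unfolded protein builds up. T cells that enlarge and divide after activation make much new protein, among it actin and tubulin, which need the CCT chaperonin to fold.

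The heat shock element was looked for in the promoters, since it is the sequence through which these genes are known to respond to stress. RefSeq promoter windows (GRCm38.p6, 250 bases before to 50 after a start) were at hand for 29 of the 36 members. The motif GAANNTTC, which reads the same on both strands, was in a window of 11 of these 29 (37.9%), against 9.04% of all 27025 genes with windows. TTCNNGAA was in 8 of the 29 (27.6%) against 9.60% of all genes. A longer form, in which another GAA unit follows GAANNTTC at the same spacing, was searched on both strands with no mismatch allowed. It contains both GAANNTTC and TTCNNGAA. It was in 5 of the 29 (17.2%: Hspd1, Hspe1, Hsph1, Dnajb6 and Chordc1) against 0.662% of all genes. Sites with a changed base in a unit were not searched, so a window without a match may still hold a heat shock element. Hspd1 and Hspe1 share 285 of their 300 bases of window and so count the same site. Hspa1a and Hspa1b have near-identical windows, so their GAANNTTC matches are not separate counts either. The members were chosen by name, heat shock genes among them, so their higher shares are a description with no test. A match describes the letters of a window and not a bound site. The sites of the pair Hspd1 and Hspe1, of the near-identical genes Hspa1a and Hspa1b and of Dnaja1, one of the genes that fell with dopamine, are printed below 5′ to 3′ on the strand of the named gene, with GAANNTTC and TTCNNGAA matches in capitals.
Hspe1, chr1:55088053-55088082, plus strand: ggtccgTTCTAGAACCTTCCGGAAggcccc
Dnaja1, chr4:40722333-40722362, plus strand: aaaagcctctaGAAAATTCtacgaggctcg
Hspa1a, chr17:34972187-34972286, minus strand: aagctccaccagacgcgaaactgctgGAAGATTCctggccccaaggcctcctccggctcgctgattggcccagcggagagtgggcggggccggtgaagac

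In Hspe1 the capitals run over 18 bases, from position -89 to -72 relative to the start, and hold GAANNTTC and TTCNNGAA matches that overlap; in GENCODE the Hspe1 stretch also lies in an exon of Hspd1. The Hspa1b window was identical over the printed stretch (chr17:34959269-34959368, minus strand), and the whole windows of Hspa1a and Hspa1b differed at 4 of 300 bases. In Dnaja1 the match lay at positions -124 to -117 from the start, the first of those RefSeq lists for this gene, and inside an exon of Dnaja1 in GENCODE, where the gene begins farther upstream.

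The T cell label was checked first. Cd4 stood at 122 and 123 FPKM in Th0 2 and Th0 3 and at 115 and 119.8 FPKM in Th0+Dopa 2 and Th0+Dopa 3, while Cd8a was at most 0.853 FPKM. Cd8b1 stood at 3.76 and 3.34 FPKM in Th0 and at 5.98 and 4.19 FPKM with dopamine, higher in both tables without a call. The 12 T cell identity genes summed to 1749 and 1802 FPKM in Th0 and to 1842 and 1793 FPKM with dopamine. Of these, 4 were called higher (Cd5, Cd6, Cd3d and Zap70) and 1 lower (Trac), beside 6.28% and 4.39% of all tested genes. With libraries scaled to a common FPKM sum 2 were called higher and 1 lower, beside 3.29% and 9.31% of all. Markers of myeloid cells moved with the treatment: 15 macrophage and dendritic cell markers summed to 261 and 348 FPKM in Th0 and to 33.3 and 34.7 FPKM with dopamine, and 13 granulocyte and mast cell markers to 491 and 668 against 56.4 and 52.8 FPKM. In this second list 0 of 13 were at 0 in either Th0 library, and 3 and 2 with dopamine; in the first list 1 and 0 of 15 were at 0 in Th0 and 3 and 3 with dopamine. The 7 B cell markers summed to 15.0 and 21.3 FPKM in Th0 and to 21.8 and 25.0 FPKM with dopamine. Of these, 2 were tested, both higher with dopamine in both tables and 0 called. CD8 T cell and NK markers summed to at most 6.98 and erythroid markers to at most 1.76 FPKM in any library. Mitochondrially encoded genes held 5.64% and 8.41% of the summed FPKM in Th0 and 1.55% and 3.35% with dopamine. The part of these differences in the values below was not tested, and in bulk RNA fewer cells of a type and less RNA per cell cannot be told apart.

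Few chaperone genes passed the test on the values as deposited. With limma on log2(FPKM + 1), differences taken within each table and an adjusted p under 0.05 as the threshold, 1 of 32 tested members rose (Cct4) and 2 fell (Dnaja1 and St13). Among all 11423 tested genes 6.28% rose and 4.39% fell, so the members' counts were near the background in both directions. The counts depended on the scale: 8 were called higher and 0 lower after a correction for GC content and transcript length (4.96% and 3.36% of all genes), and 0 higher and 4 lower with libraries scaled to a common FPKM sum (3.29% and 9.31% of all). At an unadjusted p under 0.05 there were 13 of 32 members, against 27.8% of all genes. The members' median log2 difference, Th0+Dopa minus Th0, was 0.13, beside 0.03 for all tested genes. In all, 18 members were higher with dopamine in both tables (37.6% of all tested genes were), 6 were lower in both (32.3% of all) and 8 had opposite signs. Both dopamine libraries lay above both Th0 libraries in 18 members (31.4% of all tested genes) and below them in 4 (25.6% of all): Hspd1, Dnaja1, Chordc1 and St13. All 8 CCT genes were in both counts of 18, and 7 of them were among the 13 with an unadjusted p under 0.05. These counts therefore do not describe the chaperones evenly.

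**Figure D1:**
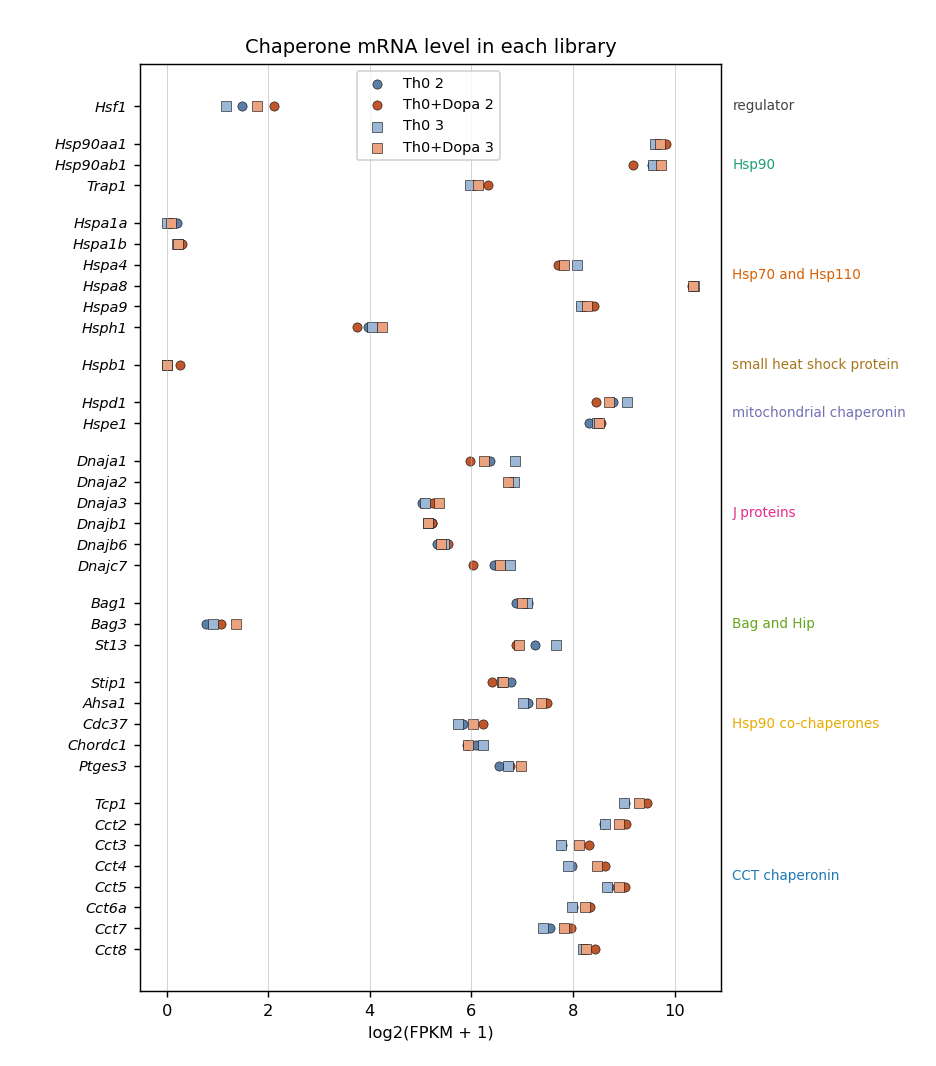
Level of each of the 35 chaperone genes with a row, as log2(FPKM + 1) on the horizontal axis, with 1 point per library (blue Th0, orange Th0+Dopa, circles for libraries numbered 2 and squares for 3), grouped by role. Hspa8 has the highest level in every library, at 1305 to 1341 FPKM, and Hspa1a, Hspa1b and Hspb1 lie near 0.

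**Figure D2:**
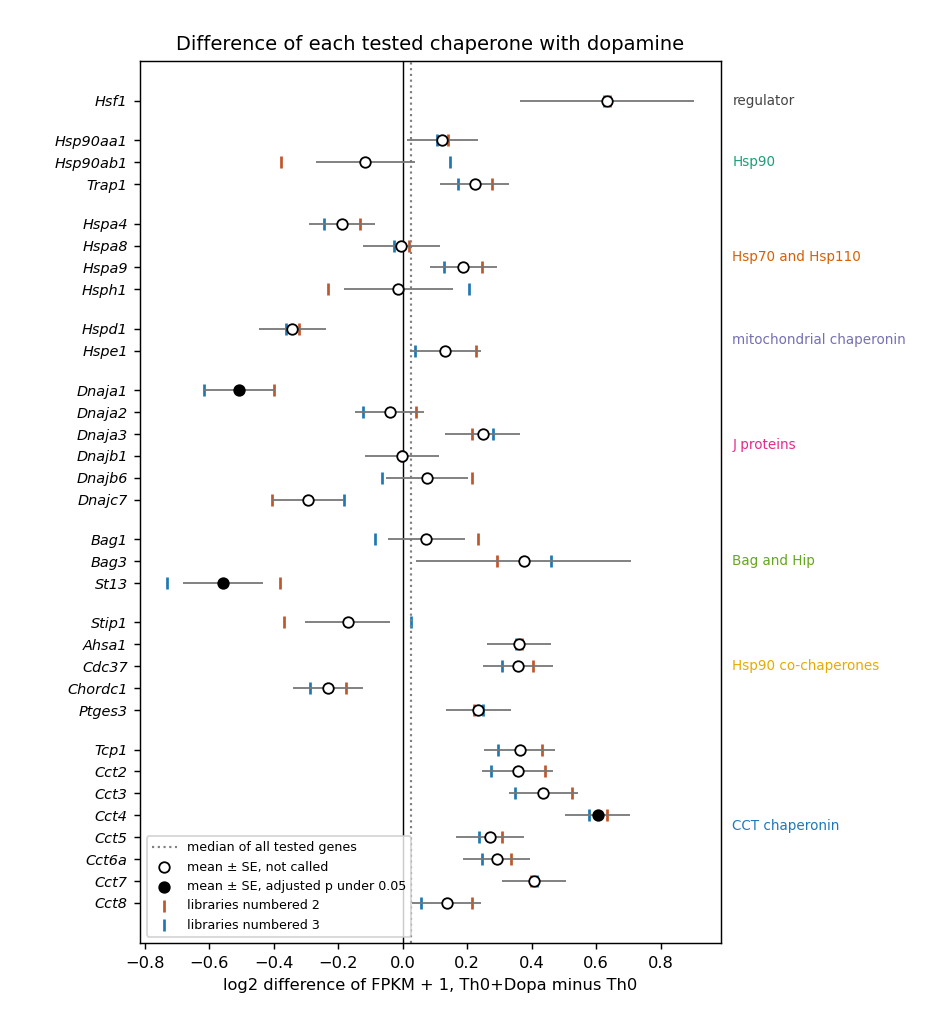
Log2 difference of FPKM + 1, Th0+Dopa minus Th0, of the 32 tested chaperones. Circles are the mean of both tables with its standard error from limma, filled for the 3 genes with an adjusted p under 0.05; ticks are the values of the single tables, and the dotted line is the median of all tested genes (0.03). All 8 CCT genes lie to the right of 0 and the filled Dnaja1 and St13 to the left.

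The strictly stress-inducible genes stood near 0 in these cultures. Hspa1a, one of a pair of genes for the heat-inducible Hsp70, was at 0.157 FPKM in Th0 2, listed at 0 in Th0 3, and at 0.0639 and 0.0532 FPKM in Th0+Dopa 2 and Th0+Dopa 3. Its copy Hspa1b stood at 0.219 and 0.146 FPKM in Th0 and at 0.224 and 0.167 FPKM with dopamine. The copies are near identical, so reads may be split between them, but all values were under 1 FPKM and the groups overlapped. Hspb1, the small heat shock protein, which holds unfolded proteins in solution, was listed at 0 in both Th0 libraries and in Th0+Dopa 3 and stood at 0.198 FPKM in Th0+Dopa 2. Bag3, a nucleotide exchange factor that HSF1 induces strongly and that passes clients to autophagy, was at 0.713 and 0.871 FPKM in Th0 and at 1.097 and 1.57 FPKM with dopamine. Its mean was under 1 FPKM in Th0 and above it with dopamine, so it passed the filter through the dopamine libraries alone, and its difference of 0.38 ± 0.33 (SE, adjusted p = 0.514) is given as a value only. Without Bag3, 17 of 31 members were higher with dopamine in both tables and 17 had no overlap in that direction.

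Hsf1 itself was weakly expressed. It stood at 1.78 and 1.24 FPKM in Th0 and at 3.35 and 2.45 FPKM with dopamine. Both dopamine libraries were higher, by 0.64 and 0.62 on the log2 scale in the separate tables. This was the largest difference of any tested member, but values this low rest on few fragments, and with a standard error of 0.27 it did not pass (adjusted p = 0.198). Dnajb1, a J protein that is a classical HSF1 target, had 36.5 and 34.4 FPKM in Th0 and 36.4 and 34.4 FPKM with dopamine, with a log2 difference of -0.0025 ± 0.12 (adjusted p = 0.993). Hsph1, an Hsp110 that acts as an exchange factor for Hsp70 and is also heat induced, had 14.7 and 15.5 FPKM in Th0 and 12.4 and 18.0 FPKM with dopamine. Its dopamine libraries lay on either side of the Th0 libraries. Of the 8 tested members with GAANNTTC in a window, 0 rose and 1 fell (Dnaja1), beside 6.28% and 4.39% of all genes. The other called members, Cct4 and St13, had no window at hand and could not be counted here. Bag3 is 1 of the 8 and passed the filter through the dopamine libraries alone. Without it the differences of the other 7 ran from -0.51 to 0.36 with a median of -0.013. Of these 7, 2 were higher in both tables (37.6% of all tested genes were) and 3 lower in both (32.3% of all). These counts are too small to set apart from the shares of all genes. Hspd1 and Hspe1, which count the same site, had opposite signs.

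The constitutive Hsp70 was the most abundant member and nearly level. Hspa8 (Hsc70) stood at 1305 and 1341 FPKM in Th0 and at 1323 and 1315 FPKM with dopamine, which placed it between rank 58 and rank 82 of protein-coding genes in these libraries. Its dopamine libraries fell between the Th0 libraries, and its log2 difference was -0.0040 ± 0.12 (adjusted p = 0.988). Hspa9, the Hsp70 of the mitochondrial matrix (mortalin), had 285 and 284 FPKM in Th0 and 338 and 310.3 FPKM with dopamine. Both dopamine libraries were higher, without a call (0.19 ± 0.10, adjusted p = 0.3004). Hspa4, an Hsp110 relative of Hsph1, had 226 and 269 FPKM in Th0 and 206 and 227 FPKM with dopamine. The groups overlapped (-0.19 ± 0.10, adjusted p = 0.291).

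Partners of Hsp70 gave both of the falls. Dnaja1 (ENSMUSG00000028410, chromosome 4, 40722150 to 40737149, GRCm38), a cytosolic J protein that stimulates the ATPase of Hsc70, stood at 81.9 and 115 FPKM in Th0 2 and Th0 3 and at 61.9 and 75.02 FPKM in Th0+Dopa 2 and Th0+Dopa 3. Both dopamine libraries were below both Th0 libraries. From 98.7 ± 23.7 to 68.4 ± 9.30 FPKM (SD over 2 libraries a group from separately made tables), its log2 difference was -0.51 ± 0.11, a ratio of 0.704 (limma adjusted p = 0.0463). St13 (ENSMUSG00000022403, chromosome 15, 81363669 to 81400077) encodes Hip, which binds the ATPase domain of Hsp70 and slows the release of ADP. It stood at 151 and 203 FPKM in Th0 and at 116 and 122 FPKM with dopamine. The groups did not overlap, the dopamine libraries lay close together and the Th0 libraries farther apart. St13 went from 177 ± 36.5 to 119 ± 4.11 FPKM, a log2 difference of -0.56 ± 0.12 and a ratio of 0.680 (limma adjusted p = 0.0470). Relative to Hspa8 in the same library, a ratio that scaling of the libraries does not touch, Dnaja1 stood at 0.0628 and 0.0861 in Th0 and at 0.0468 and 0.0571 with dopamine, and St13 at 0.116 and 0.151 against 0.0877 and 0.0927. Both calls lay close to the threshold: without a filter on low values their adjusted p was 0.0666 and 0.0697, after a correction of the differences for GC content and transcript length 0.0999 and 0.0769, without the table as a block 0.202 and 0.127, and without limma's trend 0.172 and 0.174. Leaving out single libraries gave an adjusted p of 0.251 to 0.624 for Dnaja1 and 0.217 to 0.490 for St13. Dnaja1 overlaps the gene Smu1 on the opposite strand, and whether counting used strand is not stated in the labels.

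Of the other J proteins none passed. Dnajc7, whose TPR repeats bind both Hsp70 and Hsp90, had 85.6 and 107 FPKM in Th0 and 64.5 and 94.1 FPKM with dopamine. It was lower in both tables, but the groups overlapped (-0.29 ± 0.11, adjusted p = 0.163). Dnaja3 (Tid1), the J protein of the mitochondrial matrix, had 31.8 and 32.8 FPKM in Th0 and 37.0 and 40.0 FPKM with dopamine. Both dopamine libraries were above both Th0 libraries (0.25 ± 0.12, adjusted p = 0.230). Dnaja2 ranged from 104 to 113 FPKM and Dnajb6, which keeps aggregation-prone proteins apart, from 39.0 to 45.4 FPKM, each with opposite signs in the tables. Bag1, an exchange factor that links Hsp70 to the proteasome, ranged from 117 to 138 FPKM, also with opposite signs.

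Both cytosolic Hsp90 genes were expressed at high levels. Hsp90aa1, the inducible isoform, had 829 and 779 FPKM in Th0 and 913 and 839 FPKM with dopamine. Its difference was 0.12 ± 0.11 (adjusted p = 0.521), although both dopamine libraries were above both Th0 libraries. Hsp90ab1, the constitutive isoform, had 751 and 767 FPKM in Th0 and 578 and 849 FPKM with dopamine. The tables disagreed in sign, -0.38 in the table of the libraries numbered 2 and 0.15 in the other, and Th0+Dopa 2 stood apart from the remaining libraries as the lowest. The ratio of Hsp90aa1 to Hsp90ab1 within a library was 1.103 and 1.015 in Th0, 1.58 in Th0+Dopa 2 and 0.988 in Th0+Dopa 3. Trap1, the mitochondrial Hsp90, had 64.8 and 61.5 FPKM in Th0 and 78.7 and 69.3 FPKM with dopamine, higher in both tables without a call (0.22 ± 0.11, adjusted p = 0.239).

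The 5 Hsp90 co-chaperones divided. Ahsa1 (Aha1), the activator of the Hsp90 ATPase, had 137 and 129 FPKM in Th0 and 178 and 164 FPKM with dopamine. Cdc37, which brings kinases to Hsp90, had 55.8 and 52.1 FPKM in Th0 and 74.2 and 64.8 FPKM with dopamine. In both genes the dopamine libraries were above the Th0 libraries, by 0.36 ± 0.10 (adjusted p = 0.07999) and 0.36 ± 0.11 (adjusted p = 0.0997), short of the threshold. Ptges3 (p23), which stabilises the closed, ATP-bound form of Hsp90, had 91.9 and 105 FPKM in Th0 and 107 and 125 FPKM with dopamine (0.23 ± 0.10, adjusted p = 0.202). Its groups did not overlap either. Chordc1 (morgana) had 67.1 and 73.8 FPKM in Th0 and 59.3 and 60.3 FPKM with dopamine, lower in both tables without a call (-0.23 ± 0.11, adjusted p = 0.228). Stip1 (Hop), the adaptor that passes clients from Hsp70 to Hsp90, had 108 and 95.6 FPKM in Th0 and 83.9 and 97.4 FPKM with dopamine, with opposite signs in the tables (-0.17 ± 0.13). After the GC and length correction Ahsa1 and Ptges3 passed at 0.46 ± 0.09 each (adjusted p = 0.0407 and 0.0473), and Chordc1 turned to 0.09.

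The genes of the mitochondrial chaperonin differed in the sign of their values, and neither passed. Hspd1 (Hsp60), which forms the barrel, and Hspe1 (Hsp10), its lid, lie head to head on chromosome 1 (55077835 to 55088243 and 55088132 to 55091307) with promoter windows that overlap; their RefSeq starts lie 216 bases apart. Hspd1 stood at 439 and 537 FPKM in Th0 and at 351 and 418 FPKM with dopamine. Hspe1 stood at 319 and 353 FPKM in Th0 and at 373 and 362 FPKM with dopamine. Neither pair of groups overlapped, with Hspd1 lower and Hspe1 higher with dopamine. On the deposited scale the difference of Hspd1 was -0.34 ± 0.10 (adjusted p = 0.0989) and that of Hspe1 0.13 ± 0.11 (adjusted p = 0.483). The ratio of Hspd1 to Hspe1 within a library was 1.38 and 1.52 in Th0 and 0.941 and 1.15 with dopamine. Both dopamine ratios were below both Th0 ratios; with 2 libraries a group an exact test of this ratio cannot reach 0.05, and none was made. The genes overlap on opposite strands in GENCODE. With libraries scaled to a common FPKM sum Hspd1 fell (-0.60 ± 0.09, adjusted p = 0.0108), also with small RNA genes left out of the sum (adjusted p = 0.0217), and Hspe1 then had the same sign as Hspd1 (-0.12 and -0.071, adjusted p = 0.409 and 0.589).

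The CCT chaperonin was the group whose members all lay on 1 side. CCT (also TRiC) is a ring-shaped complex of 8 different subunits, encoded by Tcp1, Cct2, Cct3, Cct4, Cct5, Cct6a, Cct7 and Cct8 on 8 different chromosomes, and all 8 were higher with dopamine in both tables, with both dopamine libraries above both Th0 libraries. Among all tested genes 37.6% met the first of these and 31.4% the second. The differences ran from 0.14 to 0.60 with a median of 0.36. Only Cct4 passed the threshold over all genes, and 7 of the 8, all but Cct8, had an unadjusted p under 0.05 (27.8% of all genes did). Subunits of 1 complex are not independent of each other, and the count of 8 is a description with no test.

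Cct4 (ENSMUSG00000007739, chromosome 11, 22990519 to 23003780) stood at 253 and 238 FPKM in Th0 2 and Th0 3 and at 393 and 355 FPKM in Th0+Dopa 2 and Th0+Dopa 3. The gap between the groups was wider than the spread within either. From 245 ± 10.5 to 374 ± 26.3 FPKM (SD over 2 libraries a group), it rose by 0.60 ± 0.10 on the log2 scale or 1.52-fold (limma adjusted p = 0.0228). With libraries scaled to a common FPKM sum the difference was 0.35 (adjusted p = 0.0647), and it was 0.40 and a call with small RNA genes left out of the sum (adjusted p = 0.0436). Without the table as a block the adjusted p was 0.0581 and without the trend 0.129. Leaving out each library in turn gave differences of 0.52 to 0.69 and adjusted p values of 0.151 to 0.461.

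Cct3 had 219 and 217 FPKM in Th0 and 316 and 276 FPKM with dopamine. Cct7 had 187 and 169 FPKM in Th0 and 247 and 226 FPKM with dopamine. These came closest to the threshold after Cct4, with differences of 0.44 ± 0.11 and 0.41 ± 0.10 (adjusted p = 0.0581 and 0.0582). Tcp1, the most abundant subunit mRNA, had 517 and 513 FPKM in Th0 and 697 and 629.8 FPKM with dopamine (0.36 ± 0.11, adjusted p = 0.0989). Cct2 had 389 and 396 FPKM in Th0 and 528 and 479 FPKM with dopamine (0.36 ± 0.11, adjusted p = 0.102). In each of these 4 genes both dopamine libraries lay above both Th0 libraries, which were close together in all but Cct7. Cct5 had 419 and 406 FPKM in Th0 and 518 and 478 FPKM with dopamine (0.27 ± 0.10, adjusted p = 0.165). Cct6a had 254 and 253 FPKM in Th0 and 321 and 299 FPKM with dopamine (0.29 ± 0.10, adjusted p = 0.136). Cct8, the member with the smallest difference, had 298 and 294 FPKM in Th0 and 346 and 306 FPKM with dopamine (0.14 ± 0.11, adjusted p = 0.455). Its table of the libraries numbered 3 gave only 0.06.

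Summed over the complex, CCT mRNA came to 2536 and 2485 FPKM in Th0 and to 3366 and 3049 FPKM with dopamine. Relative to Hspa8 in the same library the sum was 1.94 and 1.85 in Th0 and 2.54 and 2.32 with dopamine. As a share of all FPKM of a library it was 0.369% and 0.347% in Th0 and 0.382% and 0.384% with dopamine, because the FPKM of all genes also summed to more with dopamine (687066 and 715110 in Th0, 880583 and 794873 with dopamine). Within the complex the share of Cct4 went from 9.97% and 9.58% of the summed FPKM to 11.7% and 11.7%, and that of Cct8 from 11.7% and 11.8% to 10.3% and 10.03%. The order of the subunits by level was headed by Tcp1 and closed by Cct7 in every library, and the highest subunit stood 2.76 to 3.04 times above the lowest. Cct6a, Cct7, Cct8 and Tcp1 overlap other genes on the opposite strand; Psph, the partner of Cct6a, stood at 45.4 and 45.6 FPKM in Th0 and at 103 and 81.9 FPKM with dopamine, and its part in the value of Cct6a was not tested.

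**Figure D3:**
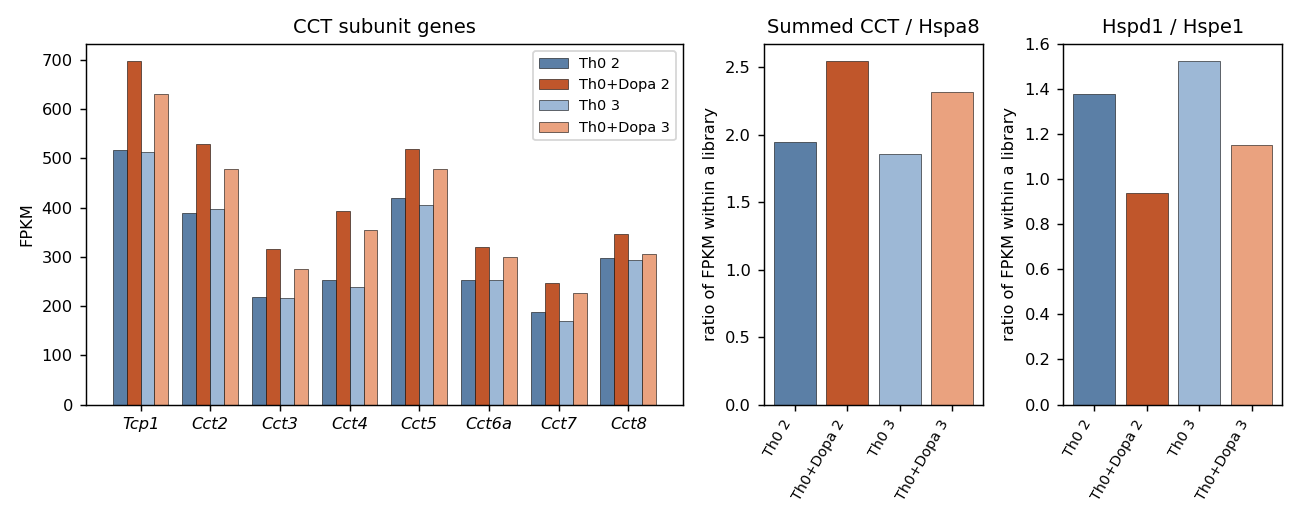
FPKM of the 8 CCT subunit genes in each library (left), the summed CCT level divided by that of Hspa8 in the same library (middle) and the ratio of Hspd1 to Hspe1 (right); bars start at 0 and each is 1 library. Every subunit is higher in the dopamine library of both tables, the summed ratio goes from 1.94 and 1.85 to 2.54 and 2.32, and the Hspd1 to Hspe1 ratio goes from 1.38 and 1.52 to 0.941 and 1.15.

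The scale of the libraries moved the sign of 1 CCT gene, while all 8 lay above the median of all genes in the 4 treatments given here. Scaling a library moves all genes and their median by nearly the same amount. The place above the median could therefore hardly change under either common sum, and those treatments are no separate check of it. With libraries scaled to a common FPKM sum the median difference of all tested genes moved from 0.03 to -0.20, calls over all genes shifted from 717 higher and 501 lower (58.9% higher) to 376 higher and 1064 lower (26.1% higher), and 7 of 8 CCT genes stayed above 0, with Cct8 at -0.12. With small RNA genes left out of the sum the split was 393 higher and 892 lower (30.6% higher) and again 7 of 8 were above 0. Relative to the median of all genes all 8 lay above it under both scalings, as deposited and after the GC and length correction, with a CCT median 0.33, 0.31, 0.31 and 0.40 above that of all genes as deposited, with the common sum, with small RNA left out and after the correction. After that correction 8 of 32 members were called higher, 5 of them CCT genes: Tcp1, Cct3, Cct4, Cct6a and Cct7. The others were Ahsa1, Ptges3 and Hspa9. The 4 called lower with the common sum were Dnaja1, St13, Hspd1 and Hspa4. With small RNA left out the same 4 were called lower and Cct4 higher (7.81% and 3.44% of all genes).

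**Figure D4:**
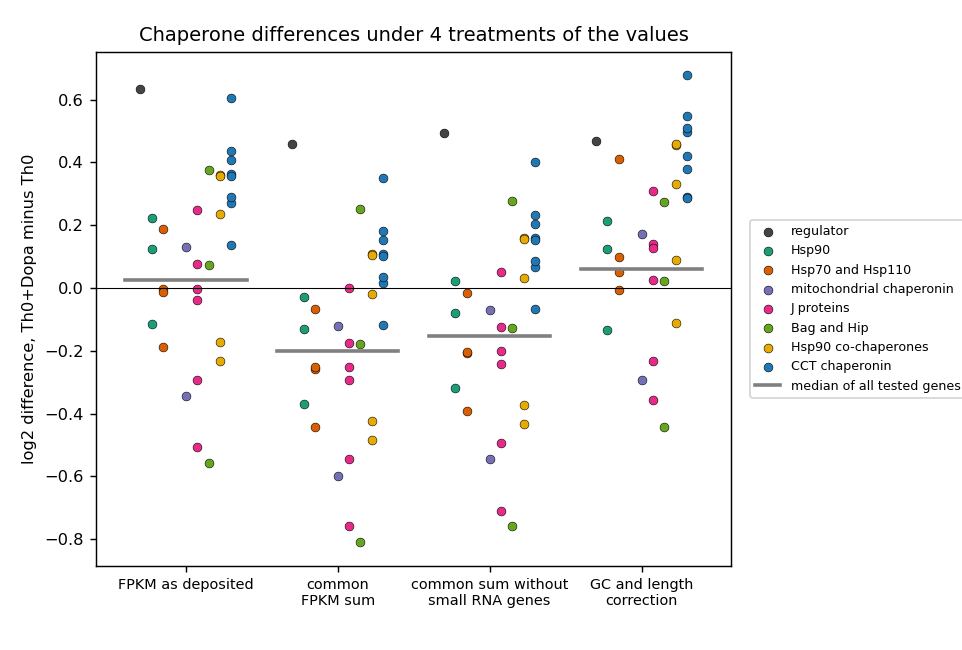
Log2 difference, Th0+Dopa minus Th0, of each tested chaperone (1 point per gene, coloured by role) for FPKM as deposited, for libraries scaled to a common FPKM sum, for the same with small RNA genes left out of the sum, and after correction for GC content and length. Grey bars are the median of all tested genes, at 0.03, -0.20, -0.15 and 0.06, and the CCT genes lie above the bar in each column.

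**Figure D5:**
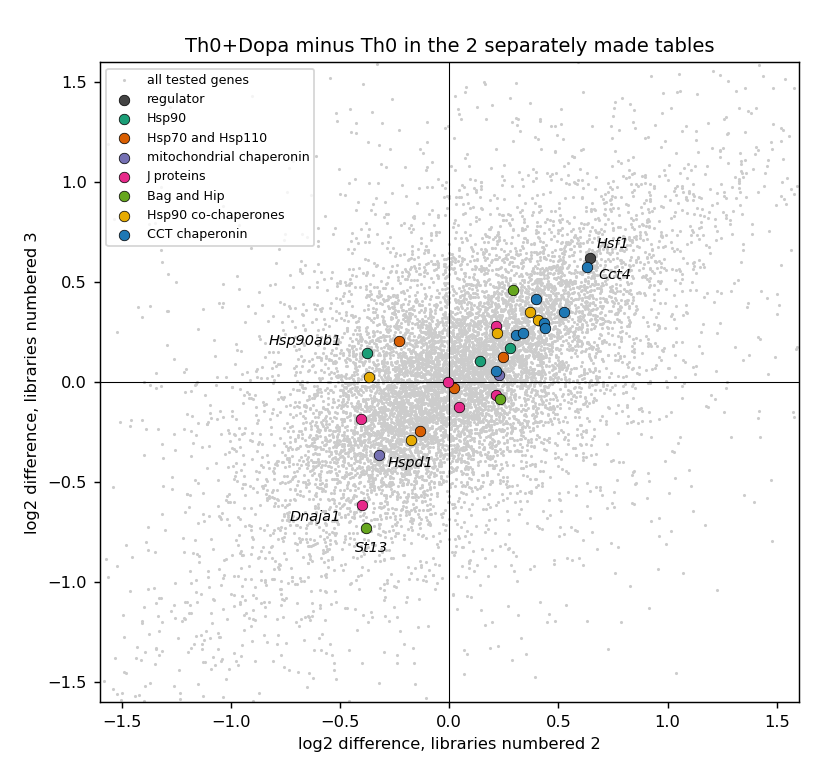
Log2 difference of each tested gene in the table of the libraries numbered 2 (horizontal) against that in the table of the libraries numbered 3 (vertical), grey for all 11423 tested genes and coloured by role for the 32 chaperones; 590 grey genes lie beyond the limits of 1.6. The CCT genes lie in the upper right, Dnaja1 and St13 in the lower left, and Hsp90ab1 has opposite signs.

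Other chaperone genes, listed with earlier results of these data known, were described by counts. Of 46 tested further cytosolic chaperones and co-chaperones, 2 rose and 1 fell (median 0.13), beside 6.28% and 4.39% of all genes. With the common FPKM sum 0 were called higher and 5 lower, beside 3.29% and 9.31% of all genes. With small RNA left out the counts were 1 and 5, beside 3.44% and 7.81%. Hspbp1, a nucleotide exchange factor of Hsp70, stood at 20.6 and 11.6 FPKM in Th0 and at 37.6 and 25.03 FPKM with dopamine and rose by 0.94 ± 0.14 (adjusted p = 0.0147). Fkbp8, a TPR protein that binds Hsp90, rose by 0.50 ± 0.10 (adjusted p = 0.0404). Pdcl, a phosducin-like protein that works with CCT in the folding of G protein beta subunits, stood at 76.6 and 79.7 FPKM in Th0 and at 47.2 and 45.5 FPKM with dopamine. It changed by -0.74 ± 0.11 (adjusted p = 0.0154), opposite in sign to the CCT subunits. Pdcl3 and Txndc9 of the same list had the sign of the CCT subunits in both tables, without a call (0.15 ± 0.13 and 0.21 ± 0.12). Prefoldin, the complex that hands actin and tubulin to CCT, had 0 of 6 genes called by limma and 0 of 6 at an unadjusted p under 0.05, with 5 of 6 of opposite sign in the tables and a median of 0.07.

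Inside mitochondria, 2 of 17 tested further chaperones and proteases rose and 0 fell (median 0.19), beside 6.28% and 4.39% of all genes. With either common sum 0 were called in either direction. Clpx, the unfoldase of the matrix protease ClpXP, rose by 0.62 ± 0.12 (adjusted p = 0.0340) and Dnajc15, a J protein of the inner membrane, by 0.57 ± 0.11 (adjusted p = 0.0358). The 5 mitochondrial members, Hspa9, Hspd1, Hspe1, Trap1 and Dnaja3, had 0 calls by limma and a median of 0.19. At an unadjusted limma p under 0.05 there was 1 of 5 (Hspd1), against 27.8% of all genes. In the endoplasmic reticulum 3 of 22 tested chaperones rose and 1 fell (median 0.03), beside 6.28% and 4.39% of all genes. Of these 22, 10 were higher and 9 lower in both tables, beside 37.6% and 32.3% of all tested genes. An unadjusted limma p under 0.05 was found for 14 of 22, against 27.8% of all genes. Scaled to a common FPKM sum, 0 were called higher and 5 lower (median -0.22), beside 3.29% and 9.31% of all genes. The calls were again 0 and 5 with small RNA left out (median -0.17), beside 3.44% and 7.81%. Sdf2l1, Pdia6 and Manf rose by 0.64 ± 0.13, 0.61 ± 0.10 and 0.52 ± 0.10 (adjusted p = 0.0399, 0.0232 and 0.0327), and Hsp90b1, the reticulum's Hsp90, changed by -0.45 ± 0.10 (adjusted p = 0.0472). Whether these lists differ from the members was not tested.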

How the data were processed

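The deposited values are FPKM, made by the authors in 2 separate tables, the first with the libraries numbered 2 and the second with those numbered 3. Per the submitters' processing notes the tools were bcl2fastq 1.8.4, Trimmomatic 0.35, FastQC 0.10.1, STAR 2.4.2 and Cufflinks 2.2.1 with the mm10 build. For annotation release, normalization options and use of strand, details were not given in the sources used here. Libraries, per the labels' protocols, came from total RNA depleted of ribosomal and globin RNA, each on 2 lanes. Depth per library is unknown, so no counting intervals are given.

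GENCODE M21 (GRCm38) named 36423 of 38282 gene IDs. Genes with a mean of at least 1 FPKM were fitted together with limma 3.58.1 in R 4.3.3 (lmFit, eBayes with trend) on log2(FPKM + 1), which understates changes of low genes, with the table as a block (each table holds 1 replicate number) because the tables were made separately. Tests were two-sided with Benjamini-Hochberg adjustment over all 11423 tested genes. Per gene the residual degrees of freedom were 1 and the prior's 4.70. Values ± are standard errors unless marked SD. The GC and length correction subtracts a loess surface (span 0.3) from each table's differences and adds back the mean of that surface. GC content and length were both at hand for 98.8% of tested genes. Every member is named; of the other chaperone lists the highest and lowest calls are named. Members and lists were chosen with earlier results of these data known. Sequences are from RefSeq on GRCm38.p6.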

Additional observations from a re-analysis of the deposited data

How the results depend on the processing

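For the members' own calls, filtering at a mean of 5 FPKM and scaling by the median of ratios gave the same 1 higher and 2 lower. Members called higher numbered 3 with a pseudocount of 0.1 (all CCT genes, so 3 there too), 0 without the replicate block, 0 with the common FPKM sum, 0 without the trend (0 CCT genes in each of these) and 8 after the GC and length correction (5 CCT genes). Members called lower numbered 0 without a filter, 0 without the block, 0 without the trend, 0 after the correction and 4 with either common sum. The members' median was -0.12 with the common sum, -0.069 with small RNA left out and 0.19 after the correction. Of the genes in the other chaperone lists, 7 rose and 2 fell as reported. The counts were 3 and 1 without a filter, 0 and 1 without the block, 0 and 10 with the common sum, 1 and 10 with small RNA genes omitted, and 0 and 0 without the trend; with a pseudocount of 0.1, 4 fell. Over all genes, calls higher and lower were 717 and 501 as deposited and 906 and 631 with a pseudocount of 0.1. They were 442 and 298 without a filter, 256 and 240 without the block, and 106 and 150 without the trend. With the common sum they were 376 and 1064, and with small RNA genes omitted 393 and 892. Leaving out each library in turn, in fits without the block, scaled by the median of ratios, where a lone library was assumed to vary like the others, left 0 to 0 members higher or lower, 0 to 0 CCT genes, 0 to 0 genes of the other lists, 0 to 3 genes higher and 0 to 2 lower over all genes, and a members' median of 0.11 to 0.19.

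Members without a call changed sign as follows, and the cause was not tested. With the common sum Hsp90aa1 was at -0.13, Trap1 at -0.029, Hspa9 at -0.067, Hspe1 at -0.12, Dnaja3 at -0.00025, Dnajb6 at -0.17, Bag1 at -0.18, Ptges3 at -0.018 and Cct8 at -0.12, moving with the median of all genes. With small RNA left out Hsp90aa1 was at -0.081, Hspa9 at -0.016, Hspe1 at -0.071, Dnajb6 at -0.12, Bag1 at -0.13 and Cct8 at -0.067. After the correction Hspa8 was at 0.051, Hsph1 at 0.099, Dnaja2 at 0.14, Dnajb1 at 0.025 and Chordc1 at 0.088. Leaving out single libraries turned Hsp90ab1 (-0.37 to 0.14), Hspa8 (-0.026 to 0.018), Hsph1 (-0.25 to 0.22), Dnaja2 (-0.11 to 0.031), Dnajb1 (-0.066 to 0.060), Dnajb6 (-0.014 to 0.16) and Bag1 (-0.0067 to 0.15). The deviations of same-numbered libraries from their group means correlated at 0.087 over genes, and the labels tie no number to an animal or a culture; the block stands for the separate tables. Values under about 1 FPKM, those of Hspa1a, Hspa1b, Hspb1 and Bag3, are limited by depth.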
